A study of Mus musculus with 4 samples.

Results

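Potassium channel genes were followed across 4 expression arrays of ribosome-bound RNA from the mouse mediobasal hypothalamus. Members were all probes whose gene symbol begins with Kcn, which gave 119 probes for 80 genes, of 25697 probes for 16593 named genes in all. The lineage group was a cross of Pomc-Cre with RiboTag mice (Pomc-Cre:RiboTag, n = 2 arrays). Cre then switches on a hemagglutinin-tagged ribosomal protein for good, in any cell that expresses Pomc or descends from one that did. The virus-injected group (n = 2 arrays) was Pomc-Cre mice given the Cre-dependent vector AAV-DIO-RiboTag, and the labels name its cells adult POMC neurons. All mice thus carried Pomc-Cre, and in both groups tagged ribosomes were immunoprecipitated from punches of the mediobasal hypothalamus. The labels state neither the age of the mice nor whether an array holds 1 animal or a pool, so a p-value here reflects spread that could be purely technical.

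Potassium channels let potassium leave a neuron and so hold or return its membrane to a negative voltage. The voltage-gated families shape the action potential, the inward rectifiers (Kcnj) set the resting state and answer to G proteins or metabolism, and the tandem-pore channels (Kcnk) carry a steady leak. In arcuate neurons, G-protein-gated inward rectifiers are a known route of inhibition by opioids and GABA, and channels of the Kcnq type carry the M-current that restrains firing.

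Pomc, the gene whose promoter drives Cre, had intensities of 7108 and 7874 on the lineage arrays, against 5079 and 5219 on the virus-injected arrays. Npy, the neuropeptide of neighbouring arcuate neurons that share Pomc-expressing precursors, had 4783 and 4451 on the lineage arrays, against 1175 and 1106 on the virus-injected arrays. Of lists of marker genes, 6 of 7 measured POMC neuron genes, 5 of 5 NPY neuron genes and 6 of 6 kisspeptin neuron genes were higher on average in the lineage group, while 5 of 6 genes of neighbouring nuclei were lower. The 6 measured astrocyte genes and the 6 measured oligodendrocyte genes all had a lower mean in the lineage group. The part of these marker differences in the channel results was not tested, and in such bulk samples fewer cells of a type and less RNA per cell cannot be told apart.

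Probes were tested where they stood above the negative controls (detection p under 0.05) on at least 2 of the 4 arrays. This left 47 Kcn probes for 37 genes, 39.5% of the Kcn probes, against 47.7% of all probes. Of the 47, 40 were detected on all 4 arrays, and each was read from 19 to 62 beads per array. Their median brightness lay at percentile 38.4 of all tested probes. Within a group the SD of a Kcn probe's log2 values had a median of 0.25 on the lineage arrays and 0.18 on the virus-injected arrays. Differences below are lineage minus virus-injected on the log2 scale of normalized intensity, with the standard error (SE) of the limma fit.

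After adjustment over all 12266 tested probes, 0 of 47 Kcn probes had a limma p under 0.05, and 0% of all tested probes did. The lowest adjusted p among the Kcn probes was 0.330. Letting the spread depend on brightness called 1.89% of all tested probes and 0 of the 47. At an unadjusted p under 0.05 there were 5 Kcn probes higher in the lineage group, where 4.84% of all tested probes were, and 3 lower, where 5.55% of all were. Together these 8 made 17.0% of the Kcn probes, against 10.4% over all tested probes. Without lineage replicate 2 the count was 5, of which 1 was among the 8, and without virus-injected replicate 2 it was 5, of which 3 were among the 8. All 8 kept their direction in each of these settings.

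The groups did not overlap for 13 Kcn probes that were higher in the lineage group, against 21.9% of all tested probes, and for 11 that were lower, against 21.4%. By their means 27 probes were higher in the lineage group, against 50.6% of all tested probes, and 20 lower. The median difference of the 47 probes was 0.10, against 0.0030 over all tested probes. It was -0.014 without virus-injected replicate 2, so its sign rests on that array. A difference of at least 1.5-fold was seen for 6 probes upward (4.89% of all tested probes) and 4 downward (5.34% of all). The full set ran from -0.97 for Kcnj16 to 0.87 for Kcna6.

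**Figure D1:**
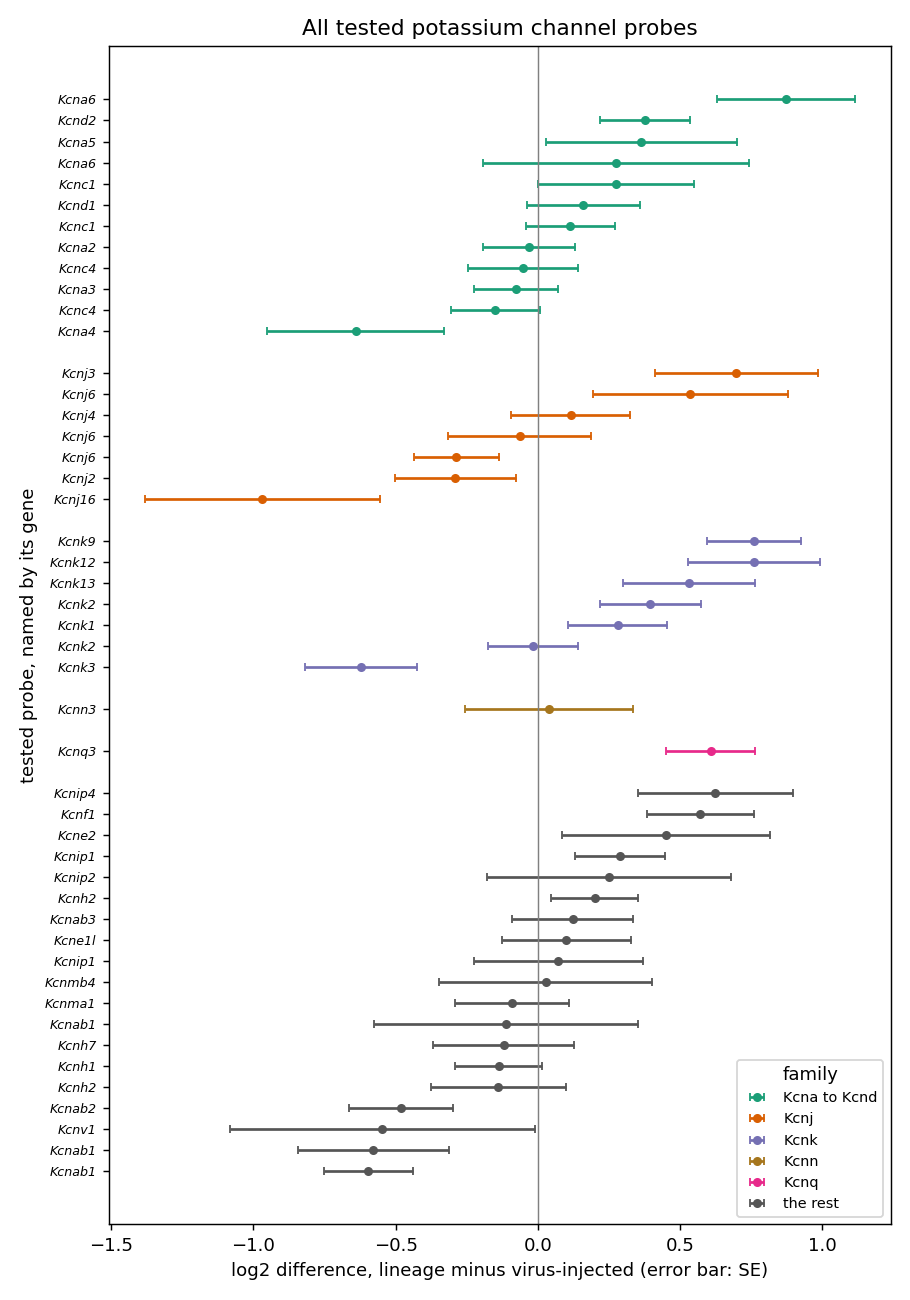
Log2 difference of each of the 47 tested Kcn probes, lineage minus virus-injected (horizontal axis), by family down the page; points are the estimates and bars their SE from the limma fit on 2 arrays per group. Probes lie on both sides of 0 in every family with over 1 tested probe, and the Kcnk probes are mostly to the right.

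**Figure D2:**
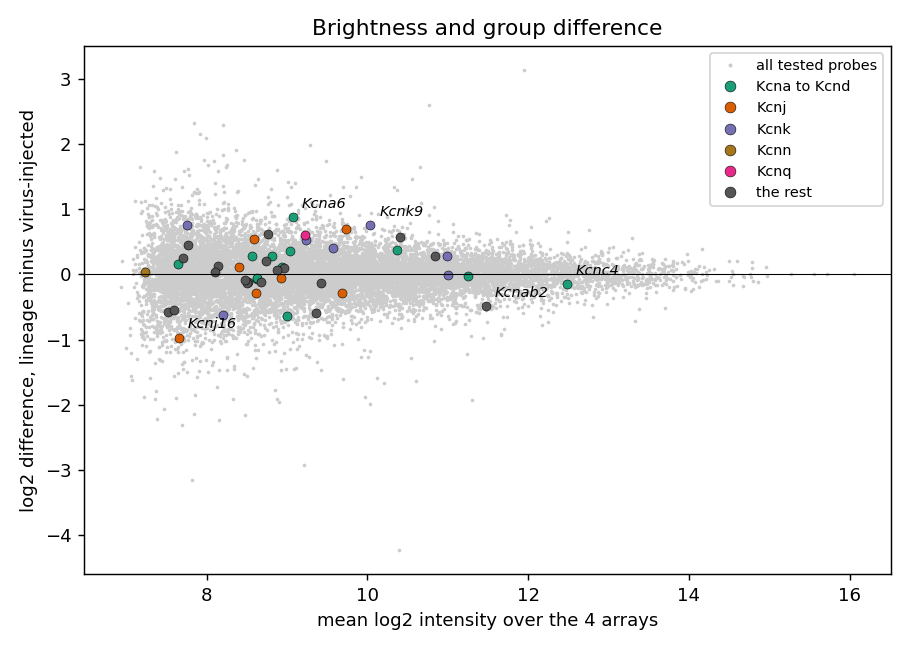
Mean log2 intensity over the 4 arrays (horizontal axis) against the log2 difference, lineage minus virus-injected (vertical axis); grey points are all 12266 tested probes and coloured points the 47 Kcn probes by family. The Kcn points lie within the grey cloud, between -0.97 and 0.87.

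Kcnk9, which encodes an acid-sensitive tandem-pore leak channel, had the smallest p of the set. Its intensities were 1737 and 1793 on the lineage arrays, against 1360 and 1135 on the virus-injected arrays, each with a standard error over beads of 44.4 to 69.6. Both lineage arrays stood above both virus-injected arrays, by 1.69-fold on normalized means (0.76, SE 0.17, limma adjusted p = 0.330). With the spread modelled on brightness it had an adjusted p of 0.0521, and over all settings tried it ranged up to 0.789. Its close relative Kcnk3, an acid-sensitive leak channel with which it can assemble, went the other way. Kcnk3 had 638 and 665 on the lineage arrays, against 758 and 832 on the virus-injected arrays (-0.62, SE 0.20, limma adjusted p = 0.427). The difference between the changes of these 2 genes was not tested.

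Kcnq3, a subunit of the M-current channel, had intensities of 1103 and 1195 on the lineage arrays, against 967 and 866 on the virus-injected arrays. The groups did not overlap, and the means differed 1.52-fold (0.61, SE 0.16, limma adjusted p = 0.381). Kcnf1, a silent subunit that acts only in channels of other families, had 2107 and 2013 on the lineage arrays, against 1766 and 1374 on the virus-injected arrays (0.57, SE 0.19). Kcnk12, a tandem-pore channel gene, lay close to background, with 647 and 748 on the lineage arrays, against 623 and 555 on the virus-injected arrays. It was above background on both lineage arrays and on 1 virus-injected array, and its difference was 0.76 (SE 0.23).

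Kcna6 encodes a delayed rectifier of the Shaker family. On its brighter probe it had 998 and 1313 on the lineage arrays, against 890 and 774 on the virus-injected arrays, a 1.83-fold difference of normalized means (0.87, SE 0.24, limma adjusted p = 0.399). The other Kcna6 probe gave 961 and 736 on the lineage arrays, against 932 and 664 on the virus-injected arrays. On that probe the groups overlapped, with a difference of 0.27 (SE 0.47).

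The auxiliary beta subunits of Shaker channels, which bind the pore subunits from inside the cell, had lower lineage means for 2 of their 3 genes. Kcnab2 had 2876 and 2702 on the lineage arrays, against 4363 and 3369 on the virus-injected arrays (-0.48, SE 0.18, limma adjusted p = 0.477). Kcnab1 on its brightest probe had 953 and 940.5 on the lineage arrays, against 1298 and 1178 on the virus-injected arrays (-0.60, SE 0.16, limma adjusted p = 0.383). In neither gene did the groups overlap on these probes. The other Kcnab1 probes were at -0.58 (SE 0.27) and -0.11 (SE 0.47), with overlapping groups at -0.11. Kcnab3, the other beta subunit gene, was at 0.12 with overlapping groups.

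**Figure D3:**
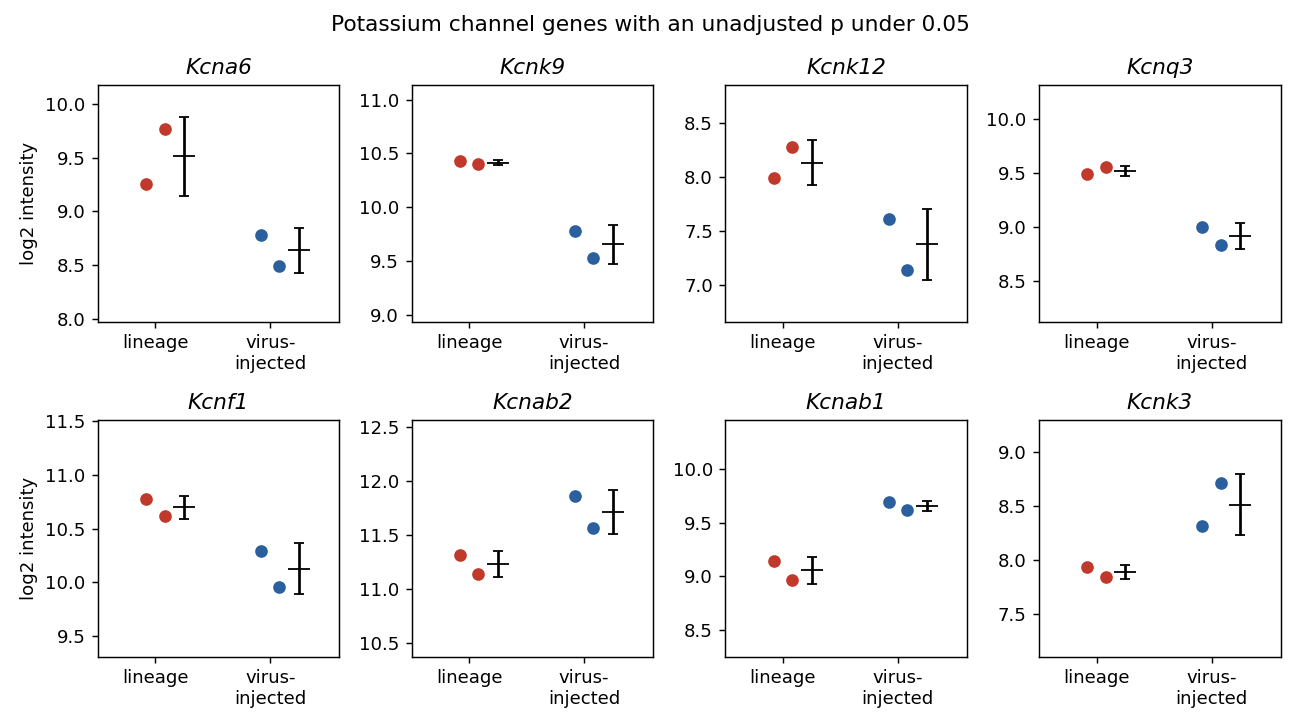
Normalized log2 intensity of the 8 Kcn genes with an unadjusted p under 0.05 on each array, lineage left (red) and virus-injected right (blue), with the mean and SD (n = 2 per group); each panel spans the same range of log2 units. The 5 genes higher in the lineage group come first, from Kcna6 at 0.87 to Kcnf1 at 0.57, and then Kcnab2, Kcnab1 and Kcnk3.

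Promoter windows were available for 5 of these 8 genes, and are shown so that the genes on either side can be set beside each other. Each line gives the 250 bases before the annotated RefSeq start of the most upstream window of the gene (GRCm38.p6), 5′ to 3′ on the strand of the gene. Capitals mark matches on either strand to GGGCGG (the GC box) and CCAAT (the CCAAT box), which do not overlap here. The 3 genes higher in the lineage group come first, at chr6:126740675-126740924 (minus strand) for Kcna6, chr17:87797995-87798244 (minus) for Kcnk12 and chr12:17176889-17177138 (minus) for Kcnf1. The 2 lower genes follow, at chr3:64948962-64949211 (plus) for Kcnab1 and chr4:152477550-152477799 (minus) for Kcnab2.
Kcna6: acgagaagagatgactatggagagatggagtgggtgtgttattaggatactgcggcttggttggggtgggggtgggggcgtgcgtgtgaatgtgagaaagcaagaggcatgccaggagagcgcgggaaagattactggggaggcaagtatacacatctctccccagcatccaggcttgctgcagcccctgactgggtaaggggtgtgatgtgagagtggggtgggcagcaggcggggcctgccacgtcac
Kcnk12: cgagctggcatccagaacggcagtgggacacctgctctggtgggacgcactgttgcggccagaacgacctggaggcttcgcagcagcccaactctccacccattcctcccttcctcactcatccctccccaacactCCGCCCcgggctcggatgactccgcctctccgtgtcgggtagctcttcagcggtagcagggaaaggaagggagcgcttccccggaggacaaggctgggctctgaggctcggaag
Kcnf1: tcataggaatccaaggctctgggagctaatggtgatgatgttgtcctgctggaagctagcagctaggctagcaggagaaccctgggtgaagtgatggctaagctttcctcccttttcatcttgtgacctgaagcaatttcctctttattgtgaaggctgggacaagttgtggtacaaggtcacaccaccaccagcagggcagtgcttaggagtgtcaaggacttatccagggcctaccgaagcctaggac
Kcnab1: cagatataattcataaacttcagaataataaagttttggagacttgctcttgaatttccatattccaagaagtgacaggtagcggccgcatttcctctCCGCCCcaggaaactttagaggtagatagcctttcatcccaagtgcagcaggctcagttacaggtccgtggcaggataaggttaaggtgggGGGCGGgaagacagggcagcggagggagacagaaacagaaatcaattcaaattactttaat
Kcnab2: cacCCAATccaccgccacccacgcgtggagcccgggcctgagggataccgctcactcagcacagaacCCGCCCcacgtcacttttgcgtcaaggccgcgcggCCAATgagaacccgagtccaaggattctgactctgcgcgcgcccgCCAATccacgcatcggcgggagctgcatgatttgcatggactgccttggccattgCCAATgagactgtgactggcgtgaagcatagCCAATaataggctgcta
The Kcnab2 window holds 5 CCAAT boxes and 1 GC box, the Kcnab1 window 2 GC boxes, the Kcnk12 window 1 GC box, and the Kcna6 and Kcnf1 windows none of either. Over 1 window for each of 27025 genes, 32.9% held a GC box and 34.5% a CCAAT box, and among 72 Kcn genes the counts were 35 and 22. No window of the 5 matched TGACGTCA (the cyclic AMP response element, in 1.62% of all windows), TATAAA (the TATA box, 13%) or CACGTG (the E box, 6.05%). Kcnab1 and Kcnab2 each have 3 annotated windows, and matches differ between them. Windows 2 and 3 of Kcnab1, not printed, each hold 1 E box. Those of Kcnab2 hold no CCAAT box and no GC box. The 5 printed windows also differed in base composition, with 20 CpG in Kcnab2, 16 in Kcnk12, 8 in Kcna6, 6 in Kcnab1 and 1 in Kcnf1. These matches describe letters only.

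Among the inward rectifiers, 5 of 12 Kcnj genes were tested, on 7 probes. None had an unadjusted p under 0.05, against 10.4% of all tested probes, and the median difference was -0.064. Kcnj3 and Kcnj6 encode the G-protein-gated subunits that assemble into the neuronal channel opened by inhibitory receptors. Kcnj3 had the brightest probe of the family, with 1326 and 1670 on the lineage arrays, against 1307 and 938 on the virus-injected arrays. The higher virus-injected array lay just below the lower lineage array, and the difference of 0.70 (SE 0.29, limma adjusted p = 0.498) ranged from 0.38 to 1.03 when 1 array was left out.

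The 3 tested Kcnj6 probes disagreed. On the brightest, intensities were 1128 and 1183 on the lineage arrays, against 1342 and 1331 on the virus-injected arrays, with no overlap (-0.29, SE 0.15, limma adjusted p = 0.572). Another gave 895 and 861 on the lineage arrays, against 668 and 850 on the virus-injected arrays, with overlapping normalized values (0.54, SE 0.34). The remaining tested probe was at -0.064 with overlapping groups. No direction can thus be given for Kcnj6. Kcnj9 and Kcnj5, further subunits of the same channel type, were at background on all 4 arrays, between 397 and 536.

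Kcnj2 and Kcnj4 encode strong inward rectifiers that hold the resting voltage. Kcnj2 had 691 and 856 on the lineage arrays, against 880.4 and 845 on the virus-injected arrays. Its normalized values did not overlap, although the deposited ones did, and the difference was -0.29 (SE 0.21). Kcnj4 had 748 and 791 on the lineage arrays, against 828 and 696 on the virus-injected arrays, with overlap (0.12, SE 0.21).

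Kcnj16, whose product joins the inward rectifier of astrocytes, had the largest difference of the Kcn set but one of the dimmest probes. It had 463 and 647 on the lineage arrays, of which 1 was above background, against 752 and 674 on the virus-injected arrays (-0.97, SE 0.41, limma adjusted p = 0.506). The difference ranged from -1.58 to -0.39 with 1 array left out. Astrocyte markers lay lower in the same arrays: 6 of 6 measured genes had a lower mean, 5 of them without overlap. Over all tested probes 21.4% were lower without overlap. The normalized intensities of the 6 marker genes summed to 8114 to 8227 on the lineage arrays, against 10028 to 11278 on the virus-injected arrays. Among astrocyte markers on the array, Gfap, Aqp4, Slc4a4 and Agt did not pass the detection filter. Their part in the Kcnj16 result was not tested.

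**Figure D4:**
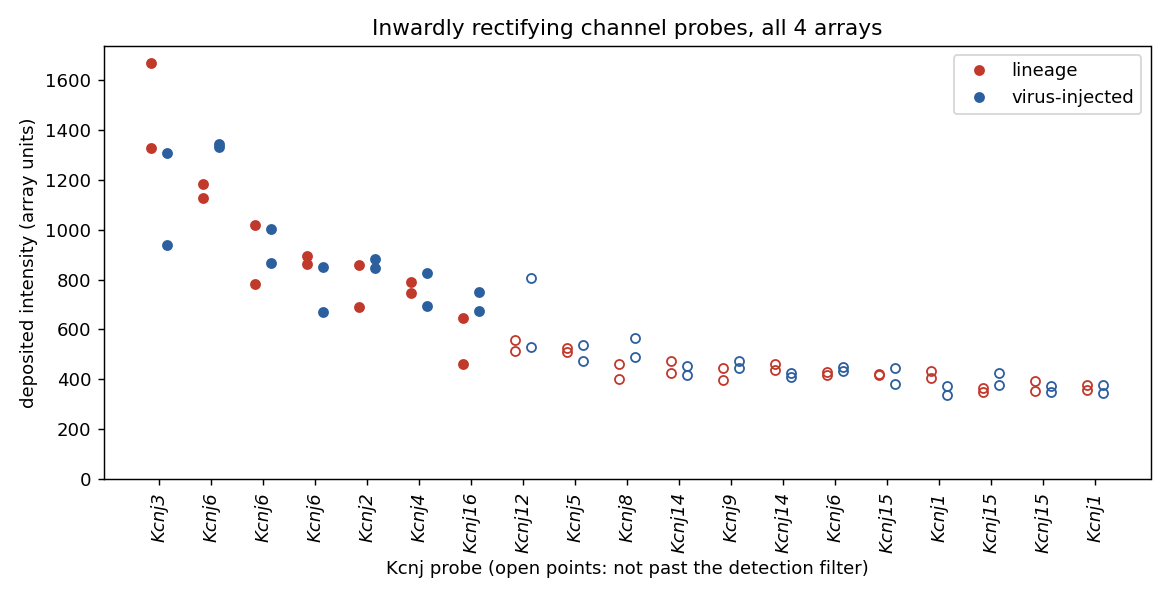
Deposited intensity (linear array units) of all 19 Kcnj probes on each array, lineage left of each pair (red) and virus-injected right (blue), sorted by their mean; filled points are probes past the detection filter and open points those that were not. Kcnj3 reaches 1670 on a lineage array. From Kcnj12 rightward the probes lie near background, except Kcnj12 on 1 virus-injected array, at 805.

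The remaining Kcnj genes were not past the filter. Kcnj12, a strong inward rectifier, was above background on 1 virus-injected array at 805, with 528 on the other, and had 514 and 558 on the lineage arrays. Kcnj8, the pore subunit of the ATP-sensitive channel of vascular mural cells, had 399 and 461 on the lineage arrays, against 490.4 and 566 on the virus-injected arrays. Kcnj1, Kcnj14 and Kcnj15 were at background throughout. Abcc8 and Abcc9, the sulfonylurea receptors that complete ATP-sensitive channels, were likewise not tested. Abcc8 had 467 and 469.9 on the lineage arrays, against 536 and 514 on the virus-injected arrays, and Abcc9 had 428 and 462 on the lineage arrays, against 407 and 462 on the virus-injected arrays. For scale, a linear fit of the authors' processed values to the deposited ones put the subtracted constant at 416 to 440.3 per array. Detection needed more than this: Kcnd3 at 636 on lineage replicate 2 was not above background.

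Upstream of the G-protein-gated channels, 15 of 20 listed genes for inhibitory receptors, G proteins and their regulators were tested. Of these 0 had an unadjusted p under 0.05, against 10.4% of all tested probes. Gabbr2, Oprm1 and Gnai1 had no probe under these symbols, so these receptor genes and this G protein gene were not measured. Oprk1 and Gnai3 did not pass the filter. By the means of the 15 tested genes, 8 were higher and 7 lower in the lineage group, with a median of 0.054. The 2 of smallest p were the G protein beta subunit genes Gnb5 at 0.23 (SE 0.15) and Gnb4 at 0.26 (SE 0.21).

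The tandem-pore family had 6 of 13 genes past the filter, on 7 probes. Of these, 5 were higher and 1 lower in the lineage group without overlap, where 21.9% and 21.4% of all tested probes were, and the family median was 0.40. Unadjusted p was under 0.05 for Kcnk9, Kcnk12 and Kcnk3 only, where it was for 10.4% of all tested probes. Kcnk1, a weak inward-rectifying leak channel, had 2732 and 2515 on the lineage arrays, against 2539 and 2097 on the virus-injected arrays. Its normalized groups did not overlap, and the difference was 0.28 (SE 0.17, limma adjusted p = 0.626).

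Kcnk2, a leak channel opened by stretch and lipids, was bright and even on its brighter probe, with 2329 and 2542 on the lineage arrays, against 2489 and 2555 on the virus-injected arrays (-0.018, SE 0.16). Its other probe had 1165 and 1406 on the lineage arrays, against 1098 and 1088 on the virus-injected arrays, without overlap (0.40, SE 0.18). The probes thus differ in sign and size. Kcnk13, named after its values were seen because it completes the family, encodes a tandem-pore channel best known from microglia. It had 1230 and 1057 on the lineage arrays, against 899.6 and 964 on the virus-injected arrays (0.53, SE 0.23). Of 7 microglial markers on the array, Aif1 alone passed the filter and was at -0.56, while Cx3cr1, P2ry12, Tmem119, C1qa, C1qb and C1qc did not pass.

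Voltage-gated pore subunits of the Kcna to Kcnd families had 9 of 13 genes past the filter, on 12 probes, and held the brightest Kcn probe. That probe, for Kcnc4, a fast-inactivating channel of high-frequency firing, had 6041 and 5385 on the lineage arrays, against 6916 and 6293 on the virus-injected arrays, and lay at percentile 95.1 of all tested probes. Both lineage arrays were lower, by no more than the error of the fit (-0.15, SE 0.16). The other tested Kcnc4 probe was far dimmer, at percentile 34.0. It had 835 and 778 on the lineage arrays, against 863 and 806 on the virus-injected arrays, with overlap (-0.052, SE 0.19). Kcna2, a main axonal delayed rectifier, had 2917 and 2666 on the lineage arrays, against 3089 and 2780 on the virus-injected arrays, with overlap (-0.031, SE 0.16). Probes bind with different strength, so this order is one of brightness and not of RNA amount.

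Kcnd2 and Kcna4 both give rise to the transient A-type current, which delays the next spike. Kcnd2 had 1974 and 1838 on the lineage arrays, against 1643 and 1553 on the virus-injected arrays, without overlap (0.38, SE 0.16, limma adjusted p = 0.506). Kcna4 had 857 and 801 on the lineage arrays, against 948 and 1225 on the virus-injected arrays, also without overlap but in the other direction (-0.64, SE 0.31). Leaving out 1 array moved Kcna4 between -1.02 and -0.27, and Kcnd2 only between 0.28 and 0.48. The other pore subunits were at -0.077 for Kcna3, 0.36 for Kcna5, 0.16 for Kcnd1 and 0.11 and 0.27 for the 2 Kcnc1 probes, and only Kcna3 showed no overlap. Kcna1, Kcna7, Kcna10 and Kcnd3 did not pass the filter.

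Partners of A-type channels were measured alongside. Kcnip1 and Kcnip4 encode calcium-binding proteins that attach to the Kcnd pore subunits. Kcnip1 had 2499 and 2346 on the lineage arrays, against 2239 and 1989 on the virus-injected arrays (0.29, SE 0.16), and 0.072 on another probe with overlapping groups. Kcnip4 had 1071 and 860.3 on the lineage arrays, against 801 and 757 on the virus-injected arrays (0.62, SE 0.27, limma adjusted p = 0.515). The groups did not overlap on the brighter Kcnip1 probe or for Kcnip4. Kcnip2 was at 0.25 with overlap. Of the transmembrane partners of Kcnd channels, Dpp10 was at 0.29 (SE 0.17) and Dpp6 at -0.099 (SE 0.16).

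Kcnq3 was the single Kcnq gene of 3 past the filter. Kcnq5, another M-current subunit, was above background on 1 virus-injected array at 631, with 436 on the other, against 533 and 506 on the lineage arrays, and Kcnq1 was at background throughout. Among calcium-activated channels, Kcnn3, the 1 of 4 small-conductance channel genes tested, had 570.0 and 544 on the lineage arrays, against 612 and 523 on the virus-injected arrays. The groups overlapped, each with 1 array above background (0.039, SE 0.30). Kcnma1, the large-conductance channel, was at -0.091, and its beta subunit Kcnmb4 at 0.028, both with overlap.

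Of the ether-a-go-go family, Kcnh1 had 1050.5 and 1083 on the lineage arrays, against 1142 and 1152 on the virus-injected arrays. Its normalized groups did not overlap, by a small margin (-0.14, SE 0.15). The 2 Kcnh2 probes were at 0.20 and -0.14, of opposite sign, and Kcnh7 at -0.12. The silent subunit gene Kcnv1 was at -0.55 (SE 0.54), detected on 1 array of each group. The small accessory subunit genes Kcne2 and Kcne1l were at 0.45 and 0.10, with overlap. Over all families 8 genes had more than 1 tested probe, and in 3 of them, Kcnj6, Kcnk2 and Kcnh2, the probes differed in sign.

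The other 43 Kcn genes had no probe past the filter, and in all 72 Kcn probes did not pass, with intensities from 297 to 805. Of these probes 8 were above background on 1 array, for Kcnd3, Kcnj12, Kcnq5, Kcne4, Kcnh6, Kcnip3, Kcnrg and Kcns1. By family the genes without a tested probe numbered 4 in Kcna to Kcnd, 7 in Kcnj, 7 in Kcnk, 3 in Kcnn, 2 in Kcnq and 20 among the rest, which include the silent Kcng and Kcns subunits, Kcnt1 and Kcnu1. These probes were not detected on at least 2 arrays, which does not show that the transcripts are absent.

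Genes that anchor potassium channels or use the potassium gradient were also measured. Over all tested probes 10.4% had an unadjusted p under 0.05, so counts of 0 in short lists say little. Of 9 listed genes that cluster Shaker channels on axons, 7 were tested and 0 had an unadjusted p under 0.05; Lgi1, a secreted synaptic protein, was at 0.40 (SE 0.24) and Dlg4, a scaffold protein, at -0.22 (SE 0.16). Amigo1, an adhesion protein bound to the Kcnb channels, had 2327 and 2550 on the lineage arrays, against 3137 and 3114 on the virus-injected arrays, without overlap (-0.37, SE 0.15, limma adjusted p = 0.501). Of 4 tested cation-chloride cotransporter genes none had an unadjusted p under 0.05. Slc12a9 was at -0.45 (SE 0.27) and Slc12a5, the neuronal chloride extruder, at -0.13 (SE 0.14).

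Of 3 tested subunit genes of the sodium-potassium pump, which builds the potassium gradient, 1 had an unadjusted p under 0.05. The share over all tested probes was 10.4%. Atp1b2, a beta subunit known from astrocytes, had 2428 and 2303 on the lineage arrays, against 5271 and 3682 on the virus-injected arrays. Both lineage arrays were below both virus-injected arrays (-0.98, SE 0.21, limma adjusted p = 0.329), as were the astrocyte markers Gja1 (-0.61) and Ntsr2 (-0.47), and their part in this result was not tested. Atp1b3 was at -0.027 (SE 0.14).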

How the data were processed

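Ribosome-bound RNA of 2 lineage and 2 virus-injected samples was hybridized to MouseRef-8 v2 beadchips. Per the file headers, the deposited table gives for each probe an average intensity, the count of beads, the spread over beads on the signal scale and a detection p-value. GenomeStudio produced them, per the submitters' processing notes, in a version not given in the sources used here. The deposited intensities were neither background-subtracted nor scaled. The authors' processed intensity table, used only as an alternative, is linear in them (residuals of at most 0.0101). The linear fit gave a subtracted constant and a scale factor for each array, and column medians were 122 to 134.

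The neqc function of limma 3.58.1 (R 4.3.3) corrected the background (normexp from the detection p-values, offset 16), quantile-normalized the arrays and took log2. Probes with a detection p under 0.05 on at least 2 arrays were fitted with lmFit and eBayes on group alone (2 residual degrees of freedom). Two-sided p-values were adjusted over 12266 probes (Benjamini-Hochberg). An exact permutation of 2 against 2 arrays cannot go below 0.333. The number of arrays limits the precision. All 4 arrays shared 1 beadchip. Positions B and D held the virus-injected and F and H the lineage samples, so position and group cannot be told apart.

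Genes were named by the platform annotation (23978 probes with 1 symbol, 1719 without); all 119 Kcn probes matched RefSeq by Entrez ID, with 0 symbols changed. A gene is given by its brightest tested probe. Named with values on every array were tested Kcnj, Kcnn and Kcnq genes, the 12 brightest Kcn genes, Abcc8 and Abcc9. Added to these, in each direction, were up to 8 Kcn genes of smallest p without overlap. Of partner lists, up to 2 tested members of smallest p were named, most of them by difference and SE alone. Members and lists were chosen with earlier results of these data known. Alternatives covered background, scaling, filter, spread model, replicate block, gene as the unit and each array left out.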

Additional observations from a re-analysis of the deposited data

How the results depend on the processing

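The number of arrays and the low brightness of many channel probes limit these results. Over all tested probes, the count past an adjusted p of 0.05 was 0 (limma) and 45 without background correction, 1 with the authors' processed values, 5 with median scaling and 232 with a trend of spread on brightness; with any array left out it was 0. The Kcn probes among these numbered 0 under each of the 13 alternatives. The count of Kcn probes with an unadjusted p under 0.05 was 8, and 5 to 9 with 1 array left out. The count without overlap was 24, with 46 of 119 probes without a filter, and 32 to 38 with 1 array left out, where a lone array overlaps less easily. The median difference was 0.10 and ranged from -0.014 to 0.14 with 1 array left out, negative without virus-injected replicate 2. Of 294 values of single named genes under alternatives, 287 kept their direction and their side of the threshold and 7 changed sign. With 1 array left out, Kcna2 ran from -0.14 to 0.084, Kcnj4 from -0.12 to 0.36, Kcnk2 from -0.11 to 0.073 and Kcnn3 from -0.29 to 0.27; Kcnk2 was also at 0.017 with the authors' processed values and 0.011 with median scaling. The cause was not tested. Without background correction all 8 genes with an unadjusted p under 0.05 lay nearer 0, at sizes of 0.26 to 0.54. Same-numbered arrays of the groups shared only a number (correlation of their deviations -0.024); with the replicate block 0 probes were called, and 9 Kcn probes had an unadjusted p under 0.05, against 8.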
